A study of Fasciola hepatica with 9 samples.

Results

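Eggs of the liver fluke *Fasciola hepatica* after 5 days in water (T5) were compared with eggs frozen at laying (T0), which covers the start of embryonation. Of the 9 libraries of the series, 6 belong to this comparison, 3 at T0 and 3 at T5. The members are all coding gene models, 9708 of 16806 models in the tables, the other 7098 being models of tRNA. The eggs came from adult worms taken from the bile ducts of naturally infected cattle and cultured for some hours in medium, and the harvest was divided evenly into the samples. T0 eggs were washed in sterilised water and frozen at once. T5 eggs were kept in the dark for 5 days in sterilised water with penicillin and streptomycin, at the body temperature of a mammalian host, before freezing. All eggs are labelled untreated, and no embryo was separated from the other content of the egg. Because the samples are portions of 1 harvest, p-values measure the spread between portions, which may be technical.

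A liver fluke egg is laid with a fertilised cell and a mass of vitelline cells, which carry the stores and shell material, inside a tanned protein shell. Cleavage takes place in water outside the host, where the embryo grows at the expense of the vitelline cells until a ciliated larva, the miracidium, hatches. Early animal embryos generally start with RNA and protein laid down by the mother and then turn to transcription of their own genome. In the fluke, stored glycogen and lipid are used as fuel, and adult flukes ferment sugar to propionate and acetate. In RNA from whole eggs, fewer cells of a type and less RNA per cell cannot be told apart.

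The libraries held 8325790, 8511734 and 8088817 expected counts at T0 and 8945151, 9187888 and 9285475 at T5. Each count comes from the 3′ end of a polyadenylated transcript, and RSEM shares reads between models that match them equally, so that 13.1 to 15.6% of values in these libraries were fractional. Values of near-identical copies (actins, tubulins, ferritins, cathepsins, fatty acid-binding proteins, dynein light chains, histones, ribosomal proteins, retroelements) are therefore uncertain one by one. Levels are given as CPM, counts relative to the library total, after correction with edgeR's TMM factors (trimmed mean of M values), and each mean ± SD rests on 3 libraries. A share, of a list or of a model, is relative to the uncorrected library total, so that at T0 a member can have more CPM than the share of its list. Of the coding models 6319 passed the filter on low counts and were tested with edgeR's quasi-likelihood test, and all adjusted p-values below are from that test over 6319 models. A call means an adjusted p under 0.05. Product names were at hand for 2406 coding models (24.78%). The tables they came from were used here in shortened form, so that a model without a name here may have one and the lists hold only part of each family. Of 1910 tested models with a name 287 were higher and 499 lower at T5. Of the named models, 15.13% owe their name to a protein of another species, so that a name marks likeness and not a proven function. T5 replicate 3 stood apart from the other T5 libraries, and for lists the calls without it are given where they moved by more than 1.5 times, in some lists as the range when any one of the 6 libraries was left out.

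At an adjusted p under 0.05, 1364 models (21.6% of those tested) were higher at T5 and 952 (15.1%) were lower. Under a fold rule that also asks for a log2 fold change above 1 or below -1, and for a non-zero median TPM at T0 and at T5, 621 models (9.83%) were higher and 241 (3.81%) lower. All 3 T5 values lay above all 3 T0 values in 28.9% of tested models and below them in 25.9%. Most genes named below were picked by a call or a small adjusted p. Groups without overlap were therefore likely in advance among them and are no added support. The middle of the distribution lay near 0, with a median log2 fold change of 0.06 and quartiles of -0.46 and 0.62. The upper tail was the longer one, since the 5th percentile was -1.36 and the 95th was 2.15. Of 102 tested models without a count in any T0 library, 82 were higher at T5, of which 7 had a name. Of 13 tested models without a count in any T5 library, 7 were lower, and none of these had a name. A model without counts in 1 group passed the filter only through libraries of the other time points. The direction of these calls was therefore largely set by the filter.

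The choice of scaling decided how many models counted as lower. With each library divided by its total alone, 2322 models (36.7%) were higher and 342 (5.41%) lower, and the median log2 fold change was 0.45 instead of 0.06. The shift of 0.39 between the scalings was the same for nearly every model, as the plot of fold changes under both scalings shows. All 1364 models that were higher with TMM were also higher with library size, and 958 more joined them. Of the 952 lower models, 341 (5.4% of those tested) were lower under both scalings and 611 had no call with library size, while 0 were called in the opposite direction. The share of calls that pointed upwards was 58.9% with TMM and 87.2% with library size. By the fold rule, 1199 models were higher with library size, among them all 621 above, and 93 of the 241 lower ones remained. Which scaling is closer to the amount of RNA per egg was not tested, and no spike-in RNA of known amount is described. Lists of genes are therefore described below by their calls under both scalings.

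**Figure D1:**
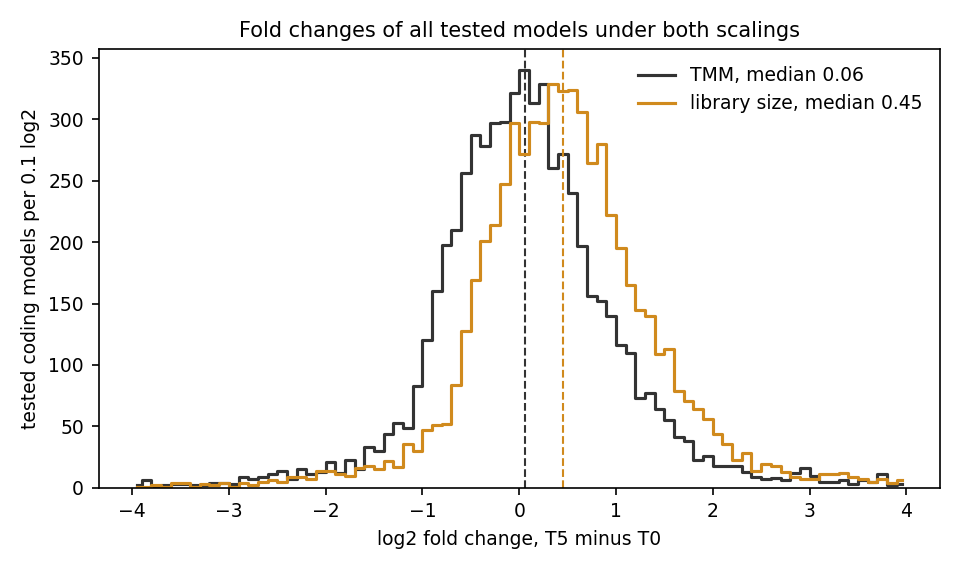
Number of tested coding models (vertical axis) in each step of 0.1 of the log2 fold change T5 minus T0 (horizontal axis), with TMM (dark line) and with library size alone (orange line), from the same counts. Dashed lines mark the medians of 0.06 and 0.45, and the orange curve is the dark one moved to the right by about 0.39. Models beyond -4 and 4 are not drawn.

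The balance of calls differed by level. Of 137 tested models with a mean above 1000 CPM, 10 were higher and 77 (56.2%) lower, with a median log2 fold change of -0.60. Of 1895 models between 30 and 100 CPM, 540 (28.5%) were higher and 266 (14%) lower, with a median of 0.15. With library size 26 of the 137 were higher and 50 lower in the top class, against 938 higher and 59 lower in the middle class. The 100 most abundant models by the mean of the 6 libraries took 54.2, 54.6 and 55.8% of all counts at T0 and 48, 46.1 and 41.8% at T5, so that the groups did not overlap. Of these 100 models, 4 were higher and 67 lower. The 10 most abundant took 28.5 to 29.1% at T0 and 21.3 to 25.7% at T5, and none of them was higher while 4 were lower. When these 10 models were left out of the library totals, an alternative chosen after the data were seen, the median log2 fold change was 0.35 with 2080 higher and 458 lower. Without the 100 most abundant it was 0.17 with 1646 higher and 751 lower. The lowest class held few calls, with 8.74% higher and 4.2% lower among 881 models under 3 CPM.

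**Figure D2:**
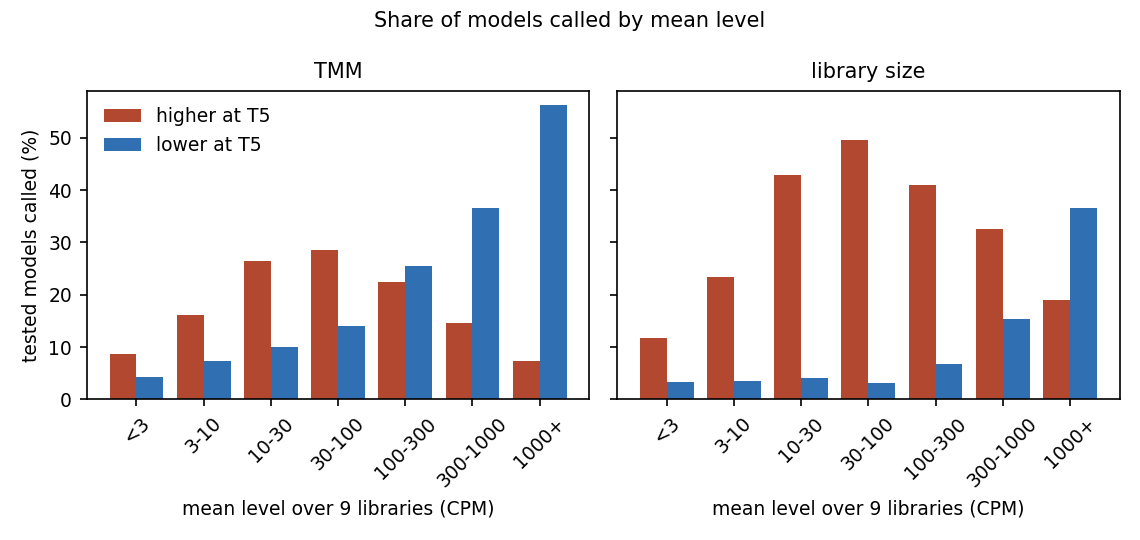
Share of tested models called higher (red bars) or lower (blue bars) at T5 in classes of mean CPM over the 9 libraries of the fit (horizontal axis), with TMM on the left and library size on the right. With TMM the blue bars climb from 4.2% to 56.2% across the classes, and with library size the red bars exceed the blue ones in every class except the highest, with 19% against 36.5%.

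The 3 T5 libraries did not move equally far. Over the models called higher, the median log2 difference to the T0 mean was 0.84, 0.99 and 1.15 in T5 replicates 1, 2 and 3. Over the models called lower it was -0.66, -0.71 and -0.93. T5 replicate 3 was the highest of the T5 libraries in 811 of the 1364 higher models (59.5%) and the lowest in 637 of the 952 lower models (66.9%), against 36.5% and 33.9% over all tested models. Without this library 1018 models were higher and 573 lower, of which 1005 and 548 were among the calls above. The reason was not tested.

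A model without a product name on scaffold 441, among the 8 with the largest gain in share of the counts, held 3, 2 and 5 counts at T0. Its level was 0.442, 0.291 and 0.819 CPM at T0 and 3180, 2497 and 2635 CPM at T5, with a log2 fold change of 12.38 ± 0.32 and an adjusted p of 3.0e-13. No T0 library came near any T5 library. Noggin, which in vertebrates is a secreted antagonist of bone morphogenetic proteins, had no count in T0 replicates 1 and 2 and 4 counts in replicate 3. Its T5 values were 45.7, 32.2 and 52.4 CPM (log2 fold change 7.65 ± 0.52 (SE), adjusted p = 3.4e-08). An oxidoreductase of the short-chain dehydrogenase family had no count at T0 and 27.6, 35.9 and 38.9 CPM at T5, at least 74.8-fold above the level that 3 counts per library would give. These genes went from the limit of detection to clear expression in every T5 library. For the oxidoreductase, which had no count at T0, the direction of the call was largely set by the filter.

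Adenosine kinase A, which salvages adenosine to AMP, was measured at 3.38, 7.13 and 4.75 CPM at T0 and 176, 187 and 175 CPM at T5. Its log2 fold change was 5.13 ± 0.22 (adjusted p = 3.1e-10), and the T5 libraries differed from each other by less than the T0 libraries did in relation to their means. Myoglobin 2, an oxygen-binding globin, stood at 4.71, 2.76 and 6.06 CPM at T0 and 236, 173 and 105 CPM at T5 (log2 fold change 5.25 ± 0.41 (SE), adjusted p = 1.8e-07). Here the groups were far apart although T5 replicate 3 had less than the other T5 libraries. Among the other large rises were an alpha amylase catalytic domain protein (2.86, adjusted p = 1.6e-07), which belongs to enzymes that cut glucose chains, and an Hsp20/alpha crystallin chaperone on scaffold 254 (3.98, adjusted p = 3.9e-06). Zinc finger proteins on scaffolds 954 and 730 rose by 5.35 and 4.18 on the log2 scale. A LIM domain protein, a PH domain protein, a pyrimidine 5'-nucleotidase and a TM2 domain protein completed the 15 largest named rises, with log2 fold changes of 4.31, 4.54, 3.82 and 2.92. At T0 the Hsp20 protein had 7, 7 and 2 counts and the LIM domain protein 4, 5 and 14. The size of these 2 rises therefore rests on few T0 counts.

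The 42 lists drawn from product names hold 998 coding models, of which 817 were tested. Over all tested models 21.6% were higher and 15.1% lower with TMM, and 36.7% and 5.41% with library size. Models with a name, from which the lists are drawn, leaned downwards, with 287 of 1910 higher and 499 lower with TMM. A list with counts near these shares shows no trait of its own. In the plot of the lists, those of replication, chromatin and cytosolic ribosomal proteins lie to the right of the median of all models. Those of stored fuel, fermentation, lipids, iron and secreted peptidases lie to the left. The distance of a list's median from that of all models hardly changed between the scalings, whereas the calls did.

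**Figure D3:**
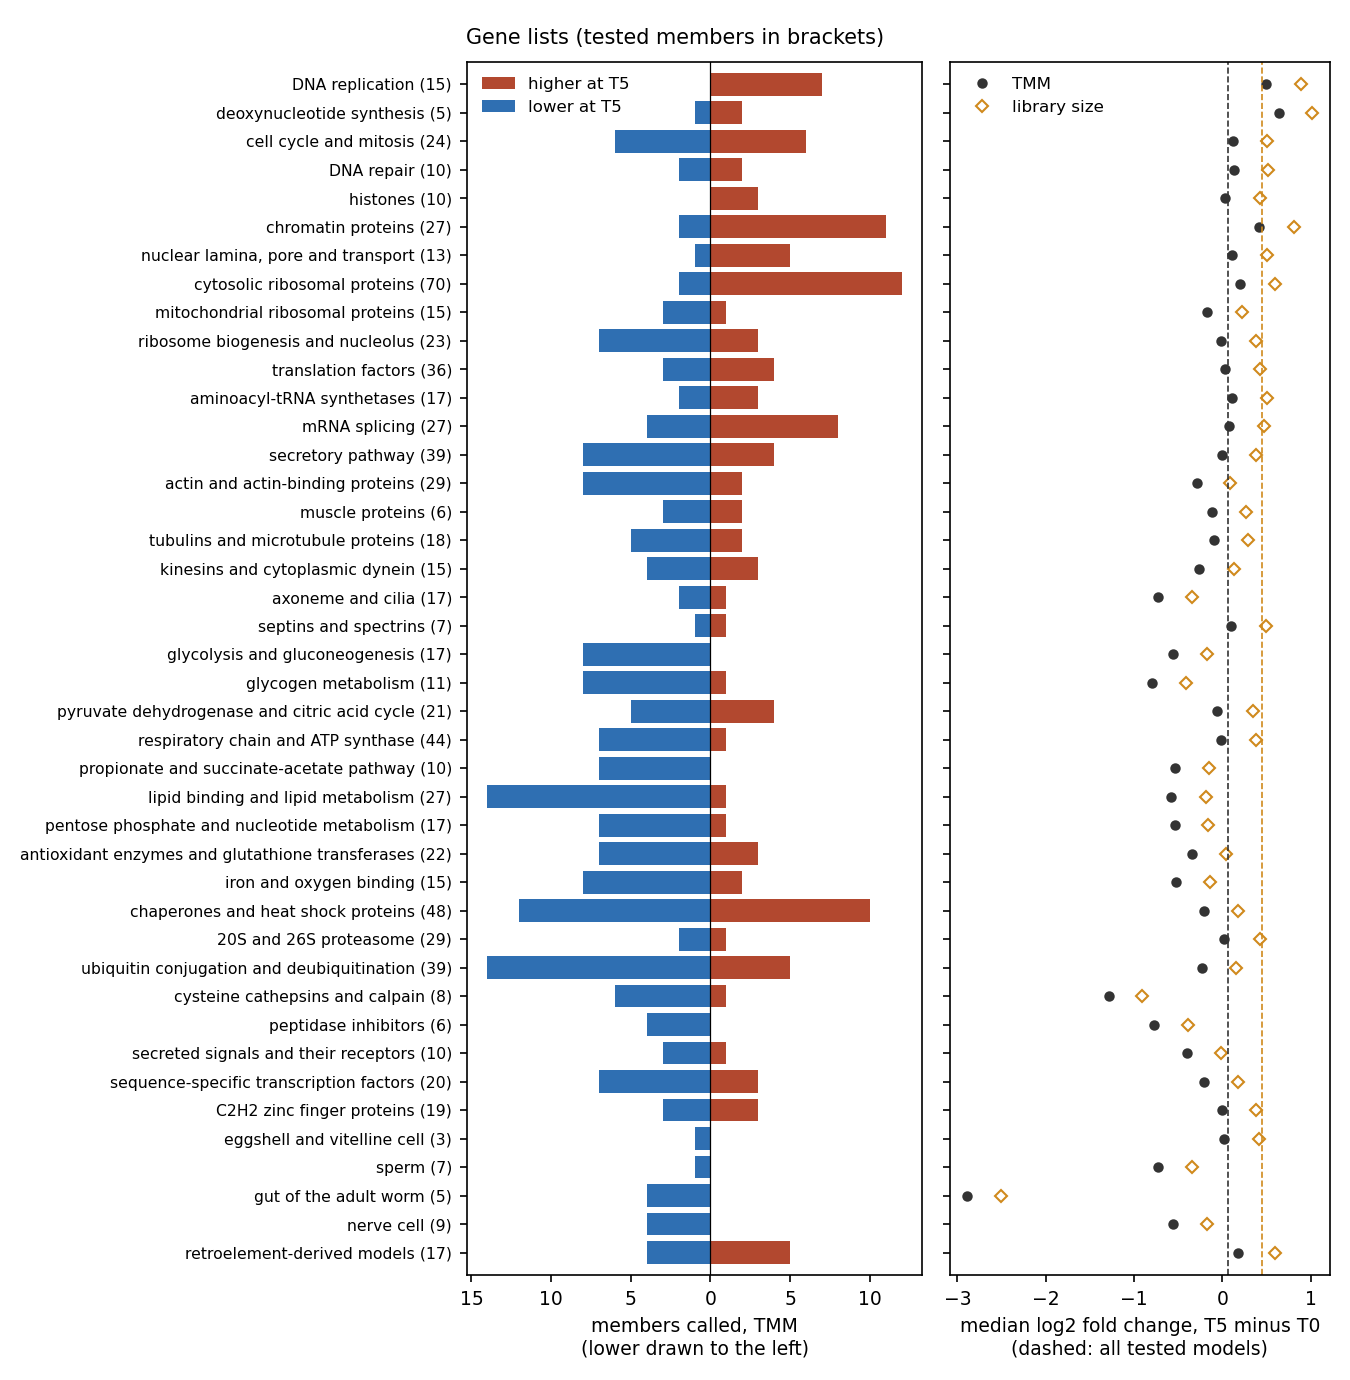
Left, tested members of each list called higher (red, to the right) or lower (blue, to the left) at T5 with TMM, with the number tested in brackets. Right, median log2 fold change T5 minus T0 of each list with TMM (black points) and library size (orange diamonds), where dashed lines mark the medians of all tested models at 0.06 and 0.45. DNA replication shows 7 higher and 0 lower, lipid binding and metabolism 1 higher and 14 lower.

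Genes of DNA replication with a call all rose. Of 15 members, all tested, 7 (46.7%) were higher, 0 were lower and 8 had no call, where 21.6% of all tested models were higher. The median log2 fold change was 0.49 against 0.06 for all models, and with library size 11 were higher and 0 lower. Their summed share of all counts went from 1764 ± 68.8 CPM at T0 to 3744 ± 669 CPM at T5. MCM7, a subunit of the helicase that opens the double strand, was measured at 372, 319 and 286 CPM at T0 and 644, 822 and 1021 CPM at T5 (log2 fold change 1.35 ± 0.19 (SE), adjusted p = 1.1e-04). Every T5 library exceeded every T0 library, and T5 replicate 3 was the highest. Replication protein A, which coats the single strand, had a subunit on scaffold 1239 at 116, 118 and 127 CPM at T0 and 285, 267 and 363 CPM at T5 (log2 fold change 1.34 ± 0.16 (SE), adjusted p = 1.5e-05), and another on scaffold 103 rose by 0.75. The helicases on scaffolds 770 and 1087 rose by 1.11 and 1.19 on the log2 scale (adjusted p = 9.3e-05 and 2.8e-04). PCNA, the sliding clamp of the polymerases, rose by 0.49 (adjusted p = 0.033), and a DNA polymerase on scaffold 113 by 1.09. The polymerase on scaffold 520, at a higher level, had no call at a log2 fold change of -0.31 (adjusted p = 0.15). PCNA, the scaffold 103 subunit and both polymerases were chosen after their values were seen.

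The supply of deoxynucleotides was split. Ribonucleotide reductase, which makes deoxynucleotides from ribonucleotides, consists of a large and a small chain. The model named ribonucleoside-diphosphate reductase without a subunit, on scaffold 43, was measured at 182, 165 and 197 CPM at T0 and 468, 368 and 546 CPM at T5 (log2 fold change 1.34 ± 0.21 (SE), adjusted p = 2.3e-04). The model named as the small subunit stood at 355, 368 and 366 CPM at T0 and 128, 184 and 159 CPM at T5 (log2 fold change -1.21 ± 0.20 (SE), adjusted p = 3.1e-04). Both pairs of groups were without overlap and pointed in opposite directions under both scalings. Dihydrofolate reductase-thymidylate synthase, which makes thymidylate, rose from 73 ± 8.98 CPM at T0 to 129 ± 11.1 CPM at T5 (0.82, adjusted p = 5.9e-04).

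Among 24 tested cell cycle and mitosis genes 6 were higher and 6 were lower, with a median of 0.12, close to that of all models. Rac GTPase-activating protein 1, needed for the division furrow in animals, was measured at 97, 96.5 and 105 CPM at T0 and 262, 207 and 247 CPM at T5 (log2 fold change 1.26 ± 0.23 (SE), adjusted p = 7.0e-04). A cyclin domain protein went the other way, with 893, 803 and 986 CPM at T0 and 399, 387 and 276 CPM at T5 (log2 fold change -1.34 ± 0.20 (SE), adjusted p = 1.7e-04). ESCO1, an acetyltransferase that establishes cohesion of sister chromatids, fell from 194 ± 20.5 CPM at T0 to 78.7 ± 5.55 CPM at T5 (adjusted p = 3.3e-04). The list also caught the actin-capping protein CAP-G by its name, which is no cell cycle gene and fell from 2161 ± 249 CPM at T0 to 943 ± 138 CPM at T5. Chosen after their values were seen, the anaphase activator CDC20 rose by 0.75, the mitosis inhibitor Wee1 by 0.97, and both regulator of condensation models by 1.07 and 0.65. Polo-like kinase had a log2 fold change of -0.57 and the checkpoint protein MAD2 of -0.46, both lower with TMM (adjusted p = 0.035 and 0.034) and without a call with library size (0.3 and 0.82). With library size the list had 10 higher and 3 lower, and without T5 replicate 3 it had 6 and 3. DNA repair genes were likewise divided, with 2 higher and 2 lower of 10, or 4 and 0 with library size and 1 and 1 without T5 replicate 3.

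Chromatin proteins leaned upwards and gained share. Of 27 tested members 11 were higher and 2 were lower, with a median of 0.41, and with library size 14 were higher and 1 lower. Without T5 replicate 3 the counts were 11 and 1. Their share went from 6241 ± 195 CPM at T0 to 12223 ± 2345 CPM at T5. High mobility group protein DSP1, an abundant DNA-bending protein, was measured at 1126, 1177 and 1591 CPM at T0 and 3162, 3239 and 5003 CPM at T5 (log2 fold change 1.55 ± 0.22 (SE), adjusted p = 9.6e-05). It was among the 8 models with the largest gain in share, and T5 replicate 3 exceeded the other T5 libraries clearly. The histone methyltransferase MLL3 stood at 36.4, 43.8 and 31.4 CPM at T0 and 87.1, 106 and 128 CPM at T5 (log2 fold change 1.52 ± 0.19 (SE), adjusted p = 3.2e-05). A SWI/SNF remodelling subunit rose by 1.05 on the log2 scale, the acidic phosphoprotein ANP32 by 1.22 and the nucleosome assembly protein, a histone chaperone, by 0.74 (adjusted p = 6.2e-04, 1.7e-04 and 0.0023). Heterochromatin protein 1 beta (chromobox protein 1) rose by 0.68 (adjusted p = 0.0099, 0.071 without T0 replicate 1 and 0.068 without T0 replicate 2).

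Of 10 histone models 3 (30%) were higher, 0 were lower and 7 had no call, where 21.6% of all tested models were higher. Under library size 4 were higher, and 1 without T0 replicate 1. The histone H2A on scaffold 1318 was measured at 199.6, 237 and 237 CPM at T0 and 470.0, 440.4 and 435 CPM at T5 (2 times the T0 mean, adjusted p = 3.7e-04), with all T5 values above all T0 values. The H2A on scaffold 1697 rose by 0.70 (adjusted p = 0.0077, 0.05 and 0.058 without T0 replicates 1 and 2), and an H3 on scaffold 1084, named from the tapeworm *Hymenolepis diminuta*, by 0.91 (adjusted p = 0.0072, 0.058 without T0 replicate 1). In most animals the histone messages made for replication end without a poly(A) tail, and these libraries start from such tails. Levels of histones here may therefore leave out much of the histone message. In the nuclear envelope, 5 of 13 tested genes of lamina, pore and transport were higher and 1 lower, or 7 and 0 with library size and 3 to 4 and 0 to 1 with any one library left out. Lamin-B receptor, which ties chromatin to the inner membrane, rose by 1.23 (adjusted p = 4.2e-04), with T5 values of 232, 283 and 457 CPM against 124 to 153 CPM at T0. RAN binding protein 1 and importin alpha, both of nuclear transport, rose by 0.83 and 0.77.

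**Figure D4:**
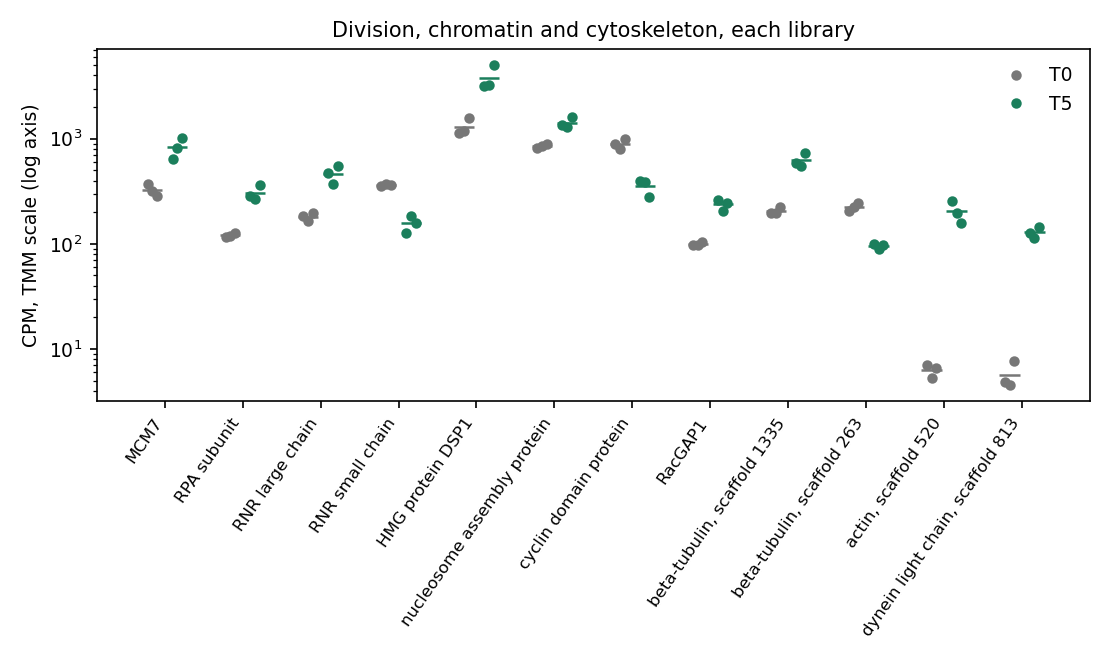
CPM on the TMM scale (vertical log axis) of 12 genes of division, chromatin and cytoskeleton in each T0 library (grey) and T5 library (green), with the mean of 3 as a bar. No gene has overlapping groups, the RNR small chain, the cyclin domain protein and beta-tubulin on scaffold 263 are lower at T5, and actin on scaffold 520 goes from 6.28 ± 0.941 to 203 ± 48.6 CPM.

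Ribosomal proteins gained share, while few passed the test with TMM. Of 70 tested proteins of the cytosolic ribosome 12 were higher and 2 were lower with TMM, while with library size 54 were higher and 0 lower, and the median log2 fold change was 0.20 against 0.06 and 0.59 against 0.45. Their share of all counts went from 31654 ± 1340.5 CPM at T0 to 44395 ± 4994 CPM at T5. Shares are on the library-size scale, on which the typical tested model also rose, by a median log2 fold change of 0.45. The gain in share is thus not particular to this list. With any one library left out the TMM counts were 5 to 10 higher and 1 to 3 lower, the lowest being without T5 replicate 3. S2e of the small subunit was measured at 84, 103 and 57.8 CPM at T0 and 201, 169 and 231 CPM at T5 (log2 fold change 1.29 ± 0.29 (SE), adjusted p = 0.0028). S15Aa stood at 188, 206 and 204 CPM at T0 and 370.3, 287 and 379 CPM at T5 (log2 fold change 0.79 ± 0.18 (SE), adjusted p = 0.0038). In both proteins the groups were apart. S7 and L35 rose by 0.76 and 0.91 (adjusted p = 0.0055 and 0.0064).

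Genes of ribosome assembly had a median of -0.02 against 0.06 for all models. Of 23 tested biogenesis genes 3 were higher and 7 (30.4%) were lower. Among all tested models with a name, 499 of 1910 were lower, so the list lies near that background. With library size 9 were higher and 0 lower, and without T5 replicate 3 the TMM counts were 0 and 4. Ribosomal RNA processing protein 1 was measured at 178, 132 and 174 CPM at T0 and 95.2, 93.3 and 109.9 CPM at T5 (log2 fold change -0.70 ± 0.18 (SE), adjusted p = 0.0062, 0.29 with library size). The groups did not overlap, but the call depended on the scaling. Fibrillarin, the methyltransferase of ribosomal RNA, rose from 5.03 ± 0.716 CPM at T0 to 11.3 ± 4.02 CPM at T5 (adjusted p = 0.022, and 0.074, 0.085 and 0.13, in turn, without T0 replicate 1, T0 replicate 3 and T5 replicate 3). In mitochondrial ribosomes 1 of 15 was higher and 3 were lower, or 3 and 0 with library size, led by L28 at -0.74 (adjusted p = 0.0015, 0.16 with library size). Among 36 translation factors 4 were higher and 3 were lower, and with library size 15 were higher and 0 lower. With any one library left out 1 to 3 were higher and 0 to 3 lower, with none lower without T5 replicate 3. An initiation factor on scaffold 2228 rose by 0.65 (adjusted p = 0.0035).

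Of 17 aminoacyl-tRNA synthetases, which charge tRNA with amino acids, 3 (17.6%) were higher and 2 (11.8%) were lower. These are near the shares of all tested models, 21.6% and 15.1%. With library size 9 were higher and 1 lower, and without T5 replicate 3 the counts were 1 and 1. The phenylalanine enzyme's beta chain fell by 0.92 (adjusted p = 6.2e-04) and the aspartate enzyme rose by 0.87 (0.0021). Splicing genes stayed near the background, with 8 higher and 4 lower of 27, 14 and 1 with library size, and a median of 0.08 against 0.06 for all models. With any one library left out 5 to 7 were higher and 1 to 4 lower. The large subunit of U2AF, which marks the 3′ splice site, was measured at 84.5, 70.9 and 71.2 CPM at T0 and 148, 136 and 173 CPM at T5 (log2 fold change 1.01 ± 0.15 (SE), adjusted p = 1.6e-04). The U1 snRNP protein C, of the complex that marks the 5′ splice site, stood at 137, 132 and 152 CPM at T0 and 81.8, 66.3 and 67.6 CPM at T5 (log2 fold change -0.96 ± 0.15 (SE), adjusted p = 2.1e-04). The former was higher and the latter lower in every T5 library. In the secretory pathway 4 of 39 were higher and 8 lower with TMM, whereas with library size 14 were higher and 3 lower, and the median was -0.01. Sec24D, a coat protein of vesicles leaving the endoplasmic reticulum, rose by 1.38 and the signal recognition particle subunit SRP68 by 0.88, while Sec61 beta of the protein channel and a signal peptidase subunit had -0.94 and -0.80 and were lower under both scalings.

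Within the cytoskeleton single copies of a family differed. The actin on scaffold 520 was measured at 7.06, 5.24 and 6.55 CPM at T0 and 255, 195 and 159 CPM at T5 (log2 fold change 5.01 ± 0.24 (SE), adjusted p = 7.7e-10). The actin with the highest level, on scaffold 269, was chosen after its values were seen and stood at 1441, 1729.8 and 1405 CPM at T0 and 1073, 1299 and 1173 CPM at T5 (log2 fold change -0.37 ± 0.26 (SE), adjusted p = 0.28, 0.94 with library size). On the length-scaled TPM measure the scaffold 269 actin had 1776 ± 249.7 TPM at T0 and 1809 ± 256 TPM at T5, against 270.5 ± 44.6 TPM of the scaffold 520 actin at T5. A gelsolin repeat protein, of a family that severs actin filaments, rose from 0.938 ± 0.57 CPM at T0 to 19.1 ± 5.76 CPM at T5 (4.30, adjusted p = 3.7e-05). Over the whole list of 29 tested these 2 were higher and 8 were lower (8 and 2 with library size, 2 and 4 without T5 replicate 3). The cofilin-type protein on scaffold 1499 was measured at 319.6, 344 and 407 CPM at T0 and 130.2, 118 and 136 CPM at T5 (log2 fold change -1.48 ± 0.14 (SE), adjusted p = 2.4e-06). A formin, of the proteins that nucleate filaments, was among the most abundant models and had 37187 ± 846 CPM at T0 and 23025 ± 4719 CPM at T5 (adjusted p = 0.048, 0.073 with library size, and 0.058 to 0.17 without any one of 5 libraries).

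Among tubulins, the subunits of microtubules, some copies rose and others fell. Beta-tubulin on scaffold 1335 was measured at 195, 195 and 222 CPM at T0 and 592, 545 and 725 CPM at T5 (log2 fold change 1.60 ± 0.16 (SE), adjusted p = 2.4e-06). Beta-tubulin on scaffold 263 stood at 205, 225 and 246 CPM at T0 and 99.1, 88.3 and 96.9 CPM at T5 (log2 fold change -1.25 ± 0.16 (SE), adjusted p = 3.3e-05), and the most abundant beta-tubulin, on scaffold 2005, had 1157 ± 40.5 CPM at T0 and 649 ± 85.2 CPM at T5 (-0.83, adjusted p = 0.0013). Both directions held under both scalings and the groups were apart in each gene. Alpha-tubulin on scaffold 313, named from the fluke *Echinostoma caproni*, rose from 151 ± 3.81 CPM at T0 to 400.1 ± 78.2 CPM at T5 (1.40, adjusted p = 1.2e-05). Over the list of 18 tested, 2 were higher and 5 were lower, or 5 and 3 with library size. A dynein light chain on scaffold 813, named from the tapeworm *Echinococcus granulosus* and belonging to a motor subunit family with many copies in flukes, was measured at 4.86, 4.51 and 7.69 CPM at T0 and 128, 113 and 145 CPM at T5 (log2 fold change 4.51 ± 0.21 (SE), adjusted p = 5.3e-10). Another on scaffold 245 rose by 0.91 and the light chain on scaffold 2767 had -0.97, lower under both scalings. In all, 3 of 15 kinesins and cytoplasmic dyneins were higher and 4 lower, or 4 and 2 with library size, and 3 and 1 without T5 replicate 3. Among the 3 higher was a dynein light chain on scaffold 338 without a count at T0. The direction of its call was largely set by the filter.

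Genes of cilia, which the later larva swims with, had few calls. Of 40 members of the axoneme list 17 were tested, 1 was higher and 2 were lower under both scalings, and the median was -0.73. WD repeat-containing protein 16 rose by 0.55 (adjusted p = 0.0073, 0.059 and 0.067 without T0 replicates 1 and 2). Tektin-2, a filament protein of the axoneme that is also a sperm marker, had 6.18, 5.82 and 8.19 CPM at T0 and 0.574, 0 and 0.0963 CPM at T5 (log2 fold change -4.87 ± 1.23 (SE), adjusted p = 0.0062). Its T0 level was low in every library. Of 6 tested muscle genes 2 were higher and 3 were lower, or 3 and 0 with library size. Of the 2 higher, titin on scaffold 815 lost its call without T0 replicate 2, T0 replicate 3 or T5 replicate 2 (adjusted p = 0.066, 0.076 and 0.13). Among the lower ones, Smooth isoform G on scaffold 1389 (-0.79) was caught by its name, which need not mark a muscle protein. Myophilin, a calponin-like muscle protein of flatworms, was measured at 55.2, 66.4 and 75.5 CPM at T0 and 258, 249.6 and 256 CPM at T5 (log2 fold change 1.96 ± 0.16 (SE), adjusted p = 3.1e-07), and sarcomeric alpha actinin fell by 0.75 with TMM (adjusted p = 5.5e-04, 0.055 with library size). Beta spectrin of the membrane skeleton rose by 0.90 and a septin, a filament protein of dividing cells, had -0.63 (adjusted p = 0.0025 and 0.0037, the latter 0.23 with library size).

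Most genes of glycogen metabolism were lower. Of 11 tested glycogen genes 1 was higher and 8 were lower, with a median of -0.80 against 0.06, and with library size 2 were higher and 7 lower. Their share went from 22267 ± 534 CPM at T0 to 15944 ± 1161 CPM at T5. Glycogenin glucosyltransferase, the self-glycosylating primer of glycogen and one of the most abundant messages, was measured at 8996, 9497 and 10469 CPM at T0 and 5394, 5472 and 4313 CPM at T5 (log2 fold change -0.93 ± 0.23 (SE), adjusted p = 0.0056). Glycogenin-1 stood at 59.3, 57.3 and 71.4 CPM at T0 and 26.9, 22.1 and 29.4 CPM at T5 (log2 fold change -1.26 ± 0.19 (SE), adjusted p = 1.7e-04). In both genes every T5 library was below every T0 library, under either scaling with a call. The CBM21 domain proteins on scaffolds 628 and 75 carry a domain known from subunits that bring protein phosphatase 1 to glycogen, and they fell by 1.04 and 0.95. Chosen after their values were seen, glycogen phosphorylase on scaffold 520, which releases glucose units, fell by 0.83 (adjusted p = 0.0065) and glycogen synthase by 0.80 (0.0062). Enzymes of both synthesis and breakdown were thus among the lower ones. The 1 member higher was another phosphorylase, on scaffold 149, with a mean of 1.65 CPM at T5 and 0.0485 CPM at T0, and no glycogen gene was called higher when any one library was left out.

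Of 17 tested enzymes of glycolysis and gluconeogenesis 0 were higher, 8 were lower and 9 had no call, with a median of -0.56, and with library size 2 were higher and 6 lower. Pyruvate kinase, the last step of glycolysis, was measured at 894, 926 and 820.2 CPM at T0 and 412, 382 and 300.3 CPM at T5 (log2 fold change -1.27 ± 0.21 (SE), adjusted p = 2.9e-04). Lactate dehydrogenase, which turns pyruvate to lactate, stood at 56.1, 51.7 and 56.8 CPM at T0 and 9.42, 17.9 and 20.5 CPM at T5 (log2 fold change -1.78 ± 0.26 (SE), adjusted p = 1.1e-04). Neither enzyme had overlapping groups. Glyceraldehyde-3-phosphate dehydrogenase fell by 0.92 and aldolase on scaffold 1549 by 1.11 (adjusted p = 4.7e-04 and 7.0e-04). The summed share of the list went from 9320.2 ± 475 CPM at T0 to 7344 ± 261 CPM at T5.

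In the fermentation of malate to propionate and acetate, 7 of 10 enzymes were lower and 0 higher, with 0 of 10 fold changes above 0 under TMM and a range of -1.04 to -0.21. With library size 3 were lower, and without T5 replicate 3 there were 4. Methylmalonyl-CoA mutase, which converts succinyl-CoA on the way to propionate, was measured at 686, 699 and 696 CPM at T0 and 440.5, 423 and 359.9 CPM at T5 (log2 fold change -0.77 ± 0.16 (SE), adjusted p = 0.0022). Methylmalonyl-CoA epimerase, its neighbour in the pathway, stood at 134, 164 and 158 CPM at T0 and 76.4, 95.7 and 50.4 CPM at T5 (log2 fold change -1.04 ± 0.24 (SE), adjusted p = 0.004). Malic enzyme fell by 0.81 and acetate:succinate CoA-transferase by 0.55, the latter with TMM alone (adjusted p = 0.0049 and 0.0066, 0.38 with library size).

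Genes of aerobic metabolism had medians near that of all models. Of 21 enzymes of pyruvate dehydrogenase and the citric acid cycle 4 were higher and 5 were lower, with a median of -0.06, while with library size 8 were higher and 1 lower. Without T5 replicate 3 the TMM counts were 4 and 2. The succinyltransferase of the 2-oxoglutarate dehydrogenase complex rose by 0.80 (adjusted p = 0.001), while citrate synthase, which opens the cycle, had 2605 ± 347 CPM at T0 and 1450.0 ± 263 CPM at T5 (-0.85, adjusted p = 0.0039). Of 44 respiratory chain and ATP synthase genes 1 was higher and 7 were lower, with a median of -0.02 near that of all models. With library size 19 of them were higher and 0 lower, where 36.7% and 5.41% of all tested models were. Without T5 replicate 3 the TMM counts were 1 and 3. The calls in this list thus differed between the scalings, as they did over all tested models.

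Lipid genes with a call were lower in all cases but 1 with TMM. Of 27 tested 1 was higher and 14 were lower, with a median of -0.58, and with library size 3 were higher and 7 lower. Without T5 replicate 3, 8 were lower. Acyl-CoA-binding protein, a carrier of activated fatty acids, was measured at 269.8, 236 and 291 CPM at T0 and 158, 133 and 123 CPM at T5 (log2 fold change -0.94 ± 0.15 (SE), adjusted p = 2.3e-04). The phosphatidate phosphatase LPIN3, on the way to stored fat, stood at 268, 268 and 304 CPM at T0 and 136, 99.5 and 94.3 CPM at T5 (log2 fold change -1.35 ± 0.21 (SE), adjusted p = 2.3e-04). A 1-acylglycerol-3-phosphate acyltransferase, which makes precursors of membrane lipid, was the only member higher and rose from 59.1 ± 4.15 CPM at T0 to 115 ± 16.5 CPM at T5 (0.96, adjusted p = 3.1e-04). Fatty acid-binding proteins of types 3, VI and VII lie on 1 scaffold (2403), were chosen after their values were seen, and had log2 fold changes of -0.98, -0.80 and -1.62, all lower under both scalings. These copies may share reads.

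In the pentose phosphate pathway and nucleotide metabolism 1 of 17 was higher, the adenosine kinase above, and 7 were lower, with a median of -0.54 and with library size 5 higher and 5 lower. Glucose-6-phosphate dehydrogenase, the entry to the pathway and a source of NADPH, was measured at 3213, 3211 and 4173 CPM at T0 and 1798, 1864 and 1487 CPM at T5 (log2 fold change -1.04 ± 0.20 (SE), adjusted p = 0.0011). Transketolase, further down the pathway, fell from 38.1 ± 4.21 CPM at T0 to 15.6 ± 5 CPM at T5 (-1.29, adjusted p = 0.0012). Uracil phosphoribosyltransferase, which salvages uracil, fell by 1.15 (adjusted p = 1.2e-04).

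**Figure D5:**
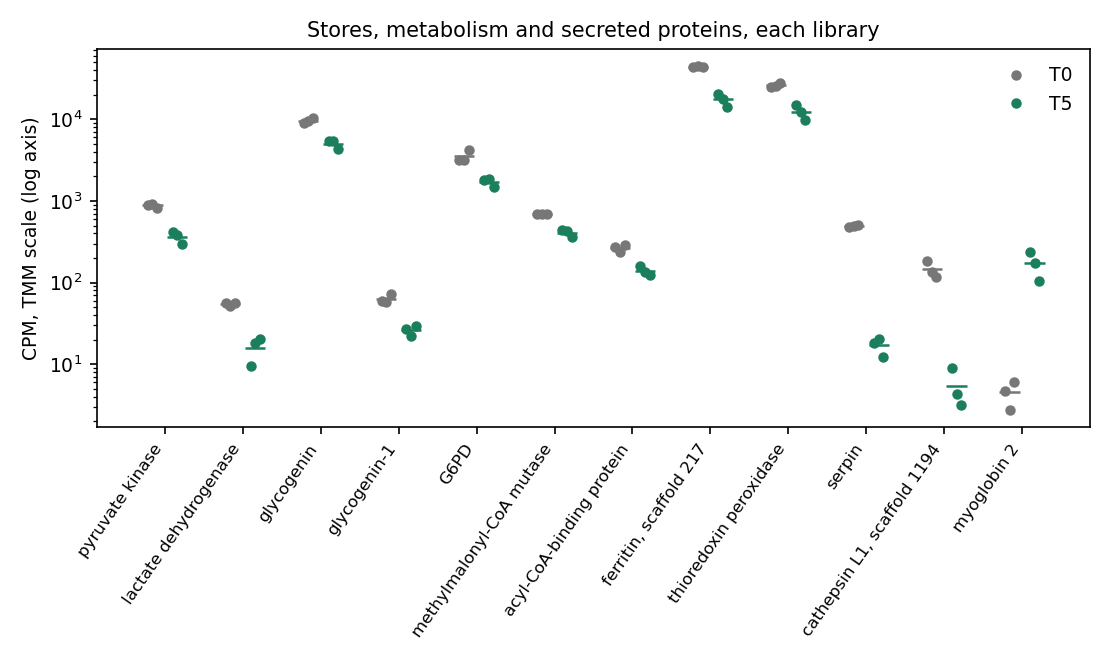
CPM on the TMM scale (vertical log axis) of 12 genes of stores, metabolism, iron, antioxidants and secreted proteins in each T0 library (grey) and T5 library (green), with the mean of 3 as a bar. In 11 of the genes all T5 points lie below all T0 points, by less than a factor of 3 for the metabolic enzymes other than lactate dehydrogenase and by a fitted factor of 29.1 for serpin, whereas myoglobin 2 lies above.

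Iron storage and antioxidant genes were among those that lost the most share. Ferritin on scaffold 217, which stores iron, was measured at 43442, 44594 and 43722 CPM at T0 and 20752, 17706 and 14226 CPM at T5 (log2 fold change -1.32 ± 0.28 (SE), adjusted p = 0.0018). The ferritins on scaffolds 145 and 1125 fell by 1.42 and 1.15, and the share of the whole list of iron and oxygen binding went from 39724 ± 1428 CPM at T0 to 21267 ± 2365 CPM at T5. In each of the 3 ferritins T5 replicate 3 was the lowest library. Of 15 members 2 were higher and 8 were lower, and with library size 2 were higher and 5 lower. The 2 higher members were globins on scaffold 908, myoglobin 2 and a globin fragment, while another globin on that scaffold, chosen after its values were seen, fell from 147 to 80.7 CPM.

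Thioredoxin peroxidase, which reduces peroxides, was measured at 24897, 25461 and 27755 CPM at T0 and 15072, 12197 and 9878 CPM at T5 (log2 fold change -1.07 ± 0.26 (SE), adjusted p = 0.0048). Thioredoxin on scaffold 143 fell by 1.03 and glutathione peroxidase on scaffold 908 by 1.22. A mu-class glutathione S-transferase, a detoxification enzyme, went against them with 147, 139 and 163 CPM at T0 and 341, 399 and 270.3 CPM at T5 (log2 fold change 1.17 ± 0.16 (SE), adjusted p = 5.6e-05), and here T5 replicate 3 was the lowest of the T5 libraries. Over 22 tested antioxidant enzymes and transferases 3 were higher and 7 were lower, the lower ones under both scalings, and with library size 7 were higher and 7 lower. Chaperones were mixed with TMM, with 10 higher and 12 lower of 48 and a median of -0.21. With library size 16 were higher and 4 lower, and without T5 replicate 3 the TMM counts were 6 and 7. The most abundant message of the eggs, the alpha crystallin-type small heat shock protein on scaffold 116, had 106900.3 ± 9698 CPM at T0 and 63544 ± 13204 CPM at T5 and no call (adjusted p = 0.052, 0.038 with library size). An Hsp90 named from *Opisthorchis viverrini* rose by 1.45 and the mitochondrial GrpE, a partner of Hsp70, by 1.47.

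Proteasome subunits had 1 higher and 2 lower of 29 with TMM and a median of 0.02, and 0 and 1 without T5 replicate 3. With library size 13 were higher and 0 lower, where 36.7% and 5.41% of all tested models were. Among 39 ubiquitin genes 5 were higher and 14 were lower, and with library size 8 were higher and 2 lower. Without T5 replicate 3 the TMM counts were 3 and 7. F-box/LRR-repeat protein 4, of ubiquitin ligases, was measured at 484, 503 and 389 CPM at T0 and 181, 259 and 157 CPM at T5 (log2 fold change -1.21 ± 0.22 (SE), adjusted p = 6.9e-04), and polyubiquitin-C fell by 0.78. Secreted peptidases had larger fold changes. Cathepsin L1 on scaffold 1194, a cysteine peptidase that the adult worm secretes from its gut, was measured at 185, 133 and 118 CPM at T0 and 8.84, 4.33 and 3.18 CPM at T5 (log2 fold change -4.75 ± 0.37 (SE), adjusted p = 1.8e-07). Cathepsin L2 on scaffold 819 stood at 33.8, 33.2 and 28.5 CPM at T0 and 4.82, 3.7 and 1.64 CPM at T5 (log2 fold change -3.24 ± 0.43 (SE), adjusted p = 5.2e-05). The fitted fold changes amount to levels 26.9-fold and 9.43-fold lower, and T5 replicate 3 was lowest in both. Cathepsin B on scaffold 1137 went upwards instead, with 232, 219 and 261 CPM at T0 and 574, 506 and 528 CPM at T5 (log2 fold change 1.17 ± 0.15 (SE), adjusted p = 3.2e-05). Of 15 cathepsins and calpains 8 were tested, 1 was higher and 6 were lower, or 4 lower with library size.

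Serpin, an inhibitor of serine peptidases, showed the largest fall of any named gene with over 100 CPM at T0 and was measured at 486, 491 and 501 CPM at T0 and 17.9, 20.6 and 12.3 CPM at T5 (log2 fold change -4.86 ± 0.32 (SE), adjusted p = 2.9e-08). Of 6 tested peptidase inhibitors 0 were higher and 4 were lower, and with library size 2 were lower. An antistasin family protein, named after a leech inhibitor of clotting, had 3282 ± 67.4 CPM at T0 and 1850.3 ± 372 CPM at T5 (adjusted p = 0.016, 0.082 without T5 replicate 3). Large falls were also seen in a Ser/Thr phosphatase family protein, with 98.2, 129.6 and 116 CPM at T0 and 6.32, 10.7 and 11 CPM at T5 (log2 fold change -3.61 ± 0.32 (SE), adjusted p = 8.5e-07), and in a 7 transmembrane receptor at -3.02. The scavenger receptor class B member 1, a receptor for lipoprotein, fell from 1305 ± 58.5 CPM at T0 to 316 ± 52.9 CPM at T5 and an EF hand protein, of the calcium binders, from 514 ± 61.6 CPM at T0 to 118 ± 12.9 CPM at T5. The other largest named falls were low in level, with a GST C-terminal domain protein at -2.79, a GTP-binding domain protein at -2.68, an ankyrin repeat protein at -5.13, bone marrow proteoglycan at -4.64, a leucine rich repeat protein at -3.86, the C2orf81 homologue at -2.62 and a tumor necrosis factor induced protein at -2.26.

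Signals and transcription factors moved in both directions. Of 10 tested signals and receptors 1 (10%) was higher and 3 (30%) were lower, where 21.6% and 15.1% of all tested models were. Among all tested models with a name, 287 of 1910 were higher and 499 lower, so the list lies near that background. With library size 2 were higher and 2 lower. The 1 higher with TMM was the noggin above. An epidermal growth factor isoform, named from *Schistosoma japonicum*, was measured at 1563, 1563 and 1857 CPM at T0 and 528, 523 and 355 CPM at T5 (log2 fold change -1.83 ± 0.22 (SE), adjusted p = 2.5e-05). CELSR, a cadherin of planar cell polarity in other animals, stood at 210.0, 184 and 183 CPM at T0 and 72.1, 75.6 and 45.9 CPM at T5 (log2 fold change -1.58 ± 0.18 (SE), adjusted p = 1.7e-05). Both fell under both scalings without overlap. Of 20 tested transcription factors 3 were higher and 7 were lower, and with library size 5 were higher and 3 lower. Without T5 replicate 3 the TMM counts were 3 and 3. The nuclear receptor 2DBD gamma, of a type with more than 1 DNA-binding domain that flatworms have, was measured at 285, 268 and 269 CPM at T0 and 115, 103 and 87.7 CPM at T5 (log2 fold change -1.43 ± 0.17 (SE), adjusted p = 2.5e-05), and a helix-loop-helix protein on scaffold 37 fell by 1.44 (adjusted p = 1.1e-04).

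The transcription factors that rose came from the floor of detection. Glial cells missing, a regulator of glia in flies and of placenta in mammals, had no count at T0 and 0.804, 2.85 and 14.1 CPM at T5, at least 12.9-fold above the level of 3 counts, with most of it in T5 replicate 3 (0.0013 as adjusted p). A homeobox protein on scaffold 1829 had 0, 3 and 5 counts at T0 and 6.09, 3.8 and 14.5 CPM at T5 (4.27, adjusted p = 0.0012). In both the T5 libraries differed severalfold from each other. Of 19 tested C2H2 zinc finger proteins 3 (15.8%) were higher and 3 (15.8%) were lower, near the 21.6% and 15.1% of all tested models. With library size 7 were higher and 0 lower, and 1 to 2 were higher with any one library left out. One on scaffold 1410 had no count at T0 and 4.94, 0.845 and 4.24 CPM at T5. This model and glial cells missing passed the filter only through libraries of the other time points. The direction of these calls was therefore largely set by the filter, and their adjusted p-values are no support for a rise.

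Genes listed by name as markers of other cells were detected, which does not show that such cells were present. Vitelline protein B1, an eggshell precursor of vitelline cells, was measured at 29722, 36533 and 32766 CPM at T0 and 34643, 34237 and 31656 CPM at T5 (log2 fold change 0.02 ± 0.33 (SE), adjusted p = 0.97, 0.16 with library size), so the groups overlapped. Its share of the uncorrected total made the largest gain of all coding models, from 26167 to 34793 CPM, without a call under either scaling. Tyrosinase on scaffold 103, which tans the shell, had 2674 ± 185 CPM at T0 and 1670.4 ± 303 CPM at T5 (adjusted p = 0.025, 0.1 with library size and 0.11 without T5 replicate 3). Of 3 eggshell markers 1 was lower and none higher, or none lower and 1 higher with library size. Of 8 markers of the adult gut 5 were tested, 4 were lower and 0 higher under both scalings, and their summed share ran from 1251 to 1343 CPM at T0 and from 821 to 1002 at T5. That sum is mostly a saposin B-type protein, which had 1396 ± 148 CPM at T0 and 814 ± 114 CPM at T5, while the defining cathepsins L1 (scaffold 1194) and L2 fell to 5.45 and 3.39 CPM at T5. The summed share of 10 sperm markers was low and went from 33.5 ± 5.37 CPM at T0 to 23.4 ± 4.73 CPM at T5, with 1 of 7 tested lower under both scalings. Of 9 tested models listed by name as nerve markers 4 were lower and 0 higher. With library size 2 were lower and 1 higher, and without T5 replicate 3 the TMM count of lower ones was 1. An ELAV-like protein led them at -1.04. Whether nerve cells were present at either time was not tested. The part of any such cells in the falls above was not tested.

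Retroelement-derived models lost share, from 11243 ± 347 CPM at T0 to 4727 ± 717 CPM at T5, mostly through 1 of them. The R2 retrotransposon polyprotein on scaffold 93 was measured at 11801, 12513 and 12452 CPM at T0 and 4051, 3197 and 2228 CPM at T5 (log2 fold change -1.96 ± 0.25 (SE), adjusted p = 3.7e-05). It had the largest fold change among the 8 models that lost the most share, and T5 replicate 3 was the lowest. Other reverse transcriptase models rose, such as those on scaffolds 45 and 839 by 1.79 and 1.14. Of 17 tested retroelement models 5 (29.4%) were higher and 4 (23.5%) were lower, where 21.6% and 15.1% of all tested models were. Of all tested models with a name, 287 of 1910 were higher and 499 lower. With library size the counts were 5 and 3. Bicaudal D, an adaptor of dynein, had 14677 ± 898 CPM at T0 and 8742 ± 1483 CPM at T5 (adjusted p = 0.026, 0.11 without T5 replicate 3), and glutamine synthetase, which fixes ammonia, 27979.7 ± 2157 CPM at T0 and 18176 ± 2150.1 CPM at T5 without a call (adjusted p = 0.059). A model without a name on scaffold 13 that lost share stood at 21686 ± 1892 CPM at T0 and 14257 ± 2031 CPM at T5 (adjusted p = 0.045, 0.11 with library size and 0.056 to 0.16 without any one of 5 libraries).

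Across the named genes the direction varied less with the processing than the calls. The rule named 193 models, of which 180 had a call with TMM. Of these, 170 had a value under each alternative scaling, filter, tool, block and left-out library that was run. All 170 kept their direction under each, while 118 also kept their call. Because the 180 were taken for a call in these same counts, a kept direction was likely in advance and is no independent check. The called genes without a value under each alternative dropped out under the filter of 10 CPM or with the 6 libraries alone.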

How the data were processed

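RNA of 9 egg samples was sequenced with QuantSeq 3′ FWD, a kit that reads next to the poly(A) tail. The authors sequenced the libraries in 1 pool and quantified reads per gene model with RSEM 1.3.3 and Bowtie2. The submitters' processing notes also name Trimmomatic 0.38, FastQC 0.11.8 and bcl2fastq 2.20.0.422. The expected counts deposited by the authors are RSEM estimates without normalization, and their deposited TPM values divide these by effective length and scale them to a fixed sum. The authors' FPKM values were not used.

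Coding models were kept, tRNA models dropped, and expected counts rounded. edgeR 4.0.16 (R 4.3.3) was run with filterByExpr, TMM factors (0.8166, 0.8078 and 0.7555 at T0, and 0.9737, 1.03 and 1.119 at T5), and the quasi-likelihood F-test over all 9 libraries with a coefficient per time point and Benjamini-Hochberg adjustment. The biological coefficient of variation was 0.244, with a prior of 9.68 degrees of freedom. SEs are approximate, as log2 fold change over the root of F. Totals of 8088817 to 9285475 counts put 3 counts, the floor used for genes without counts, at 0.289 to 0.491 CPM. Replicates of a group differed by more than sampling noise, with chi-square per degree of freedom of 6.04 to 12.51 at T0 and 18.3 to 41.44 at T5.

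The members and the 42 lists, drawn by words in product names, were chosen with earlier results of these data known. Product names came from the ID and name columns of the study's annotation tables, which were used here in shortened form. Named genes are the 15 largest named rises and falls that had a call, non-overlapping groups and a mean of 10 CPM or more in the higher group, up to 4 members per list by adjusted p, and the 8 largest gains and losses of share. Genes outside this rule are marked as chosen after their values were seen.

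Alternatives were library size, RLE and upper-quartile factors, DESeq2 1.42.0, no filter, a filter of 10 CPM in 3 libraries, only the 6 libraries compared, a replicate block, each library left out, limma 3.58.1 on log2(TPM + 1) and log2(TPM + 0.1), and no median TPM rule. Totals without the 10 or 100 most abundant models were added after the data were seen. Summaries and plots were made with Python 3.11.15, pandas 2.3.3, numpy 2.4.6 and matplotlib 3.10.9.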

Additional observations from a re-analysis of the deposited data

Results flagged for a closer look

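Reads on tRNA models, which the comparison leaves out, were present at a trace level and were fewer at T5. The 7098 tRNA models together had 147, 149 and 132 expected counts at T0, a mean of 143, and 63.8, 34.9 and 44.5 at T5, a mean of 47.7. This was 0.0016 to 0.0018% of a T0 library and 0.00038 to 0.00071% of a T5 library, and the groups did not overlap. They drew attention as a signal outside the coding models that lies above the limit of 3 counts. A kit that primes on poly(A) tails is not made to measure tRNA, and the difference was not tested.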

How the results depend on the processing

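The counts moved most with the scaling. With library size 1199 models were higher and 93 lower by the fold rule, 2322 and 342 by adjusted p, and the median was 0.45. With limma on log2(TPM + 1) they were 987 and 122, 2048 and 385, and 0.36, and on log2(TPM + 0.1) 1178 and 124, 2093 and 358, and 0.43. TPM holds each library to one sum, as library size does. Without the 10 most abundant models in the totals they were 1016 and 123, 2080 and 458, and 0.35, and without the 100 most abundant the median was 0.17. Small shifts of the median were also seen with RLE factors (-0.02), upper-quartile factors (0.01), DESeq2 (-0.02), no filter (0.00) and the filter of 10 CPM (0.00). RLE, upper-quartile factors, DESeq2, both filters, 6 libraries alone and no TPM rule left every count within 1.5 times that of the main test.

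With 1 library left out, the fold rule gave 502 to 693 higher and 179 to 290 lower, adjusted p gave 933 to 1349 higher and 573 to 877 lower, and the median ran from 0.00 to 0.06. The lowest count of lower models, 573, was without T5 replicate 3. The labels do not say whether replicate numbers pair samples across time points. Same-numbered T0 and T5 libraries correlated at -0.035, -0.003 and -0.046 in their deviations from the group means. Such values cannot show how the portions were handled. The replicate block gave 607 higher and 255 lower by the fold rule, 1299 and 965 by adjusted p, and a median of 0.05. It shared 1281 higher and 907 lower calls with the fit without it.

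Of 180 called named genes, 34 lost their call with library size, 35 with limma under either pseudocount and 19 without T5 replicate 3. None reversed where it was tested, which their choice by a call in the same counts made likely. Of the counts of list members, 19, 18 and 19 moved by more than 1.5 times without T0 replicates 1, 2 and 3, and 6, 14 and 28 without T5 replicates 1, 2 and 3. With 3 portions of 1 harvest per time point and no spike-in described, changes in total RNA per egg cannot be seen, and low models have few counts. Other copies of a family can take or give reads, and models without a name here may have one.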
